A study of Mus musculus with 18 samples.

Results

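The transcription factors that set chondrocyte and osteoblast identity were followed in cartilage after rupture of the anterior cruciate ligament (ACL). The set was chosen by name and comprised 10 genes, the Sox trio Sox9, Sox5 and Sox6, the SoxC genes Sox4 and Sox11, the Runt family Runx1, Runx2 and Runx3, and Sp7 and Mef2c, out of 49184 genes with an identifier in the expression tables. All 10 were found and all 10 passed the filter on low counts. The 18 libraries were made from total RNA depleted of ribosomal RNA, from pooled femoral cartilage caps of C57bl6 mice with no engineered allele. They formed 5 groups, namely naïve knees (n = 6), contralateral left knees and injured right knees at day 1 (n = 3 each), and contralateral left and injured right knees at day 7 (n = 3 each). Injured knees received a single 12 N load that ruptured the ligament, the left knee of the same mice was left as the contralateral control, and the mice received the analgesic buprenorphine at the start. Naïve knees were not loaded and their libraries are labelled with day 7. The mice were males, 12 weeks old at the start by the methods of the study, since the labels give no age. The text deposited with the series names 4 mice per sample, whereas a schematic of the study shows smaller pools at day 1 and for the naïve group, and naïve libraries of left and right knees share mice. Which libraries share mice is not labelled, so n counts libraries and the p-values treat them as independent.

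Chondrocytes arise from mesenchymal progenitors in which Sox9 binds the enhancers of cartilage matrix genes. Sox5 and Sox6, which lack a transactivation domain of their own, bind beside it and strengthen its action. Sox4 and Sox11 act in progenitors ahead of the Sox trio. Runx2, together with its partner Cbfb, drives chondrocyte hypertrophy and starts the osteoblast programme, Sp7 (osterix) acts downstream of Runx2 to complete it, and Mef2c promotes hypertrophy and is also used by muscle and blood cells. Runx1 and Runx3 have roles in cartilage but are best known from blood cells, where Runx1 serves stem and progenitor cells and Runx3 serves cytotoxic lymphocytes.

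Each Runx gene is transcribed from a distal and a proximal promoter. Sequences just upstream of such starts are shown because the deposited transcripts tell the starts of Runx1 apart and both contributed to its change at day 7, and those of Sox4 and Sox11 because both genes rose at day 7 and share the absence of introns. RefSeq promoter windows for GRCm38.p6 were at hand for 8 of the 10 genes, and the proximal promoter of Runx2 is not shown. Each is printed 5′ to 3′ on the strand of the gene and ends at the base before the first annotated start, which leaves the shorter windows for genes whose annotation begins further upstream. Capitals mark matches to the Runt motif TGTGGT or its reverse complement ACCACA, and to the core Sox motif ACAAT or its reverse complement ATTGT, letters that do not overlap one another.
Runx1 distal promoter, chr16:92826150-92826324, minus strand, 175 bases: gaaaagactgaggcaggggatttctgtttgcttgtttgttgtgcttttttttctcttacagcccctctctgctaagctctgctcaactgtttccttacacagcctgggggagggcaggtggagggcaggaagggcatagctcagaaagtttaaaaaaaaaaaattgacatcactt
Runx1 proximal promoter, chr16:92697330-92697579, minus strand, 250 bases: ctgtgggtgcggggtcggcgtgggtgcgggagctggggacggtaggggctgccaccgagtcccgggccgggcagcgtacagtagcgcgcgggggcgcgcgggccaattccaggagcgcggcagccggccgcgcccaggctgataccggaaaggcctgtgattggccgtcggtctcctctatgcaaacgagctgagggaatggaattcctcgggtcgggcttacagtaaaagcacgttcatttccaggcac
Runx2 distal promoter, chr17:44814798-44814877, minus strand, 80 bases: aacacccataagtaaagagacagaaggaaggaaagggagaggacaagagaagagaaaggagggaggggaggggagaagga
Runx3 distal promoter, chr4:135120395-135120644, plus strand, 250 bases: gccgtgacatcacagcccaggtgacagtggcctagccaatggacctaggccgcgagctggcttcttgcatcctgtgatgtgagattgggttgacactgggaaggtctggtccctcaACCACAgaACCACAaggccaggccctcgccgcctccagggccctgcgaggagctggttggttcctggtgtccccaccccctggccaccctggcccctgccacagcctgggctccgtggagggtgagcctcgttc
Runx3 proximal promoter, chr4:135152295-135152495, plus strand, 201 bases: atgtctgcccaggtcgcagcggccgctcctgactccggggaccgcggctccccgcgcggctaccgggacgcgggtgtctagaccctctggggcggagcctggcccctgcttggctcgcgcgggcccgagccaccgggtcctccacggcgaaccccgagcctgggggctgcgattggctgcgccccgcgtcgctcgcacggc
Sox4 promoter, chr13:28953714-28953949, minus strand, 236 bases: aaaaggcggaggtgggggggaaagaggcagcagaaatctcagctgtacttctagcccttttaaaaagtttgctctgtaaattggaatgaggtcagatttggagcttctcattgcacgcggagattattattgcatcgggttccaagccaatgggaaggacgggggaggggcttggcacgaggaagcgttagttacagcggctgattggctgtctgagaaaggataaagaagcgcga
Sox11 promoter, chr12:27342719-27342968, minus strand, 250 bases: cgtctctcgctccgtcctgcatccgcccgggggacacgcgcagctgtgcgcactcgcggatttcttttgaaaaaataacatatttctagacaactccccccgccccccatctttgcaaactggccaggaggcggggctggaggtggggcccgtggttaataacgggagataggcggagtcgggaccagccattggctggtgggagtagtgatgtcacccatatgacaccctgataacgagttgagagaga
The 2 Runx1 windows differed in base composition. The distal window held 45.1% G and C and 0 CG dinucleotides in 175 bases, and the proximal window held 67.6% G and C and 27 CG dinucleotides in 250 bases. In comparison, the median over 32851 promoter windows of 250 bases was 52.4% G and C with 6 CG dinucleotides. The distal window of Runx3 held 2 matches to the Runt motif that lie 2 bases apart, and the other windows shown held 0. Of all promoter windows of 250 bases, 14.05% held a Runt motif match and 27.7% a Sox motif match. A match describes letters in the window and was not tested for binding.

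Totals of estimated counts ranged from 16074762 to 41794005 per library, with a median of 25465706. Expression of single genes is given as CPM, the normalised read count after TMM normalisation over the 18 libraries. Differences were tested with the quasi-likelihood test of edgeR across all genes, with Benjamini-Hochberg adjustment (FDR), and a gene was called at FDR ≤0.05 and ≥1.5-fold. The label gives chondrocyte as the cell type. Col2a1, the main cartilage collagen, was at 3240 ± 886 CPM in naïve libraries (SD, n = 6). Col1a1, abundant in bone but also made by fibroblasts, was at 12425 ± 3807 CPM, and which tissue it came from was not tested. The 9 erythroid markers found summed to 34649 ± 3951 CPM, so the libraries also held RNA of erythroid cells, and whether it came from marrow or blood was not tested. In bulk RNA of this kind, fewer cells of a type and less RNA per cell cannot be told apart. One library, day 7 contralateral replicate 1, stood apart from all others. Its 10 most abundant genes took 42.5% of its counts, against 18.4% and 22.5% in the other day 7 contralateral libraries, and its erythroid sum was 64749 CPM against 29362 and 31472 CPM. Tests of the 10 factors that use it are given with and without it. Group levels, start shares and nearest profiles include it. The injured day 7 libraries also differed in composition. Their 10 most abundant genes took 29.8%, 29.8% and 26.4% of counts, against 19.6% to 25.9% in naïve libraries. Their TMM factors were 0.8291 to 0.8515, against 0.9619 to 1.12 in naïve libraries.

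At day 7 the injured knees had higher levels of 5 of the 10 factors than naïve knees and lower levels of 0 of them. Sox9, Sox11, Sox4, Runx1 and Sox5 rose between 1.55 and 2.70-fold, whereas Runx2, Sp7, Runx3 and Mef2c did not pass the threshold and Sox6 was lower by less than the fold limit. Across all 21129 genes tested in this comparison, 10.4% were called higher and 6.11% were called lower. The median log2 fold change was 0.33 over the 10 factors and -0.04 over all genes. At day 1 none of the factors was called in injured knees against naïve or contralateral knees. By edgeR 0% of all genes were called higher and 0% lower in either comparison. Against naïve knees 959 genes had an unadjusted p under 0.05 (edgeR), and DESeq2 called 0 genes higher and 12 lower.

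**Figure D1:**
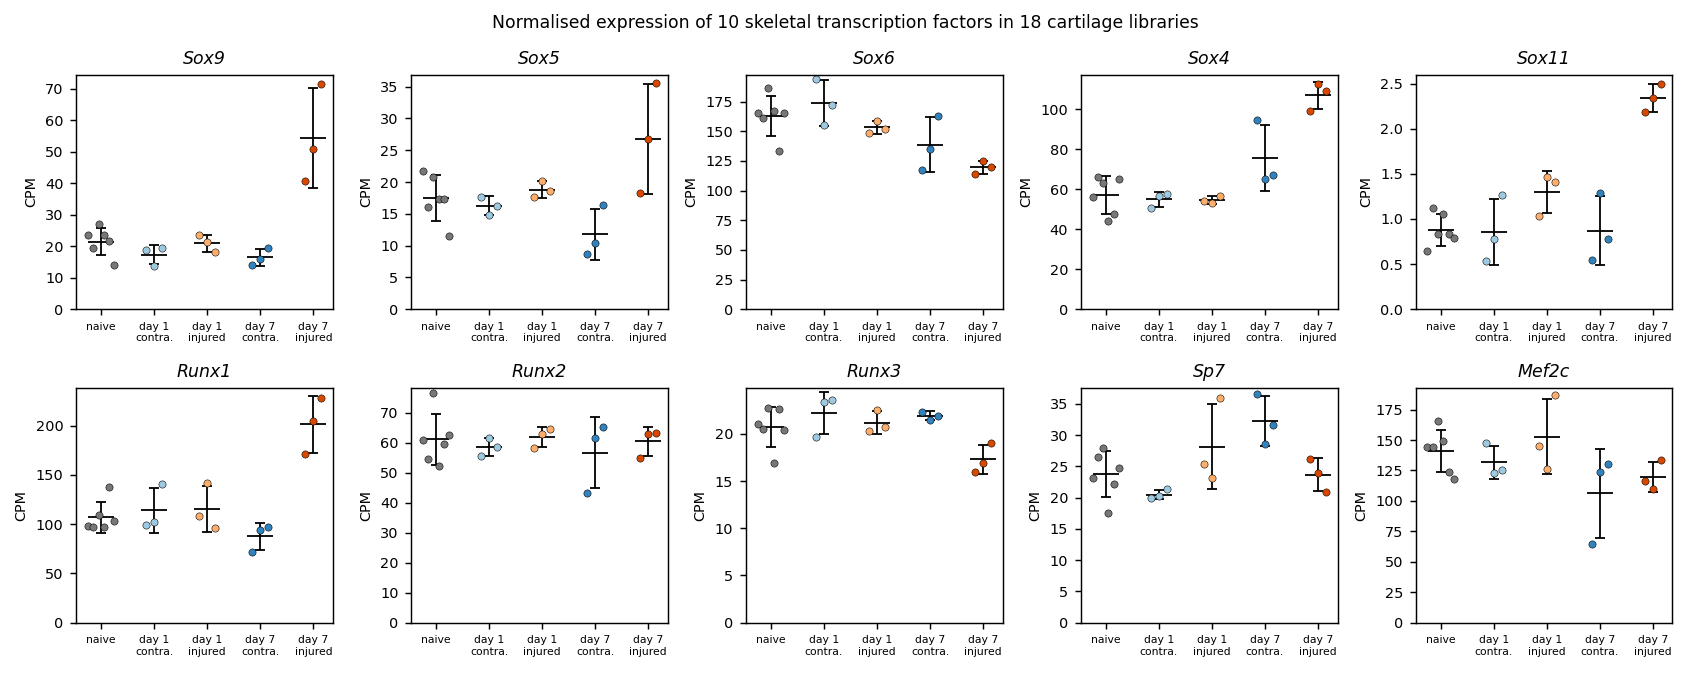
CPM of the 10 factors (y axes, each from 0) in the 18 libraries by group (x axes), with points for libraries and black lines for the mean and SD. Sox9, Sox4, Sox11 and Runx1 have all 3 day 7 injured libraries above every other library, while Runx2 shows overlapping groups throughout.

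Sox9 (chr11:112782224-112787760, plus strand, GRCm38) is the factor without which cartilage does not form. In the 6 naïve libraries its level ran from 14.1 CPM through a median of 22.5 CPM to 26.9 CPM. The contralateral knees gave 13.8, 18.7 and 19.6 CPM at day 1 and 14.1, 15.9 and 19.5 CPM at day 7, and the injured knees at day 1 gave 18.1, 21.3 and 23.5 CPM. The 3 injured day 7 libraries reached 40.6, 50.9 and 71.6 CPM and lay above all 15 others, with the widest spread of any group. The log2 fold change against naïve knees was 1.36 ± 0.19 (SE, FDR = 5.91e-05, edgeR), and with each of the other settings, including those that left out a library, it lay between 1.11 and 1.53.

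Sox5 (chr6:143828425-144781977, minus strand), a partner of Sox9, gave a weaker result. Its naïve level ran from 11.6 CPM through a median of 17.3 CPM to 21.8 CPM, and injured day 7 libraries had 18.2, 26.7 and 35.5 CPM. The lowest injured library lay inside the naïve range, so these groups overlapped. Sox5 was called higher against naïve knees (log2 fold change 0.64 ± 0.19, FDR = 0.0190), but the call was lost without naïve replicate 6 (0.54, under the fold limit), without injured day 7 replicate 2 (FDR = 0.0540) and without injured day 7 replicate 3 (0.38, FDR = 0.179). Of its protein-coding estimated counts, 92.2% to 100% per library came from long transcripts that begin at chr6:144209452-144209568, with a mean share of 98.8% in naïve and 98.7% in injured day 7 libraries.

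Sox6 (chr7:115470872-116038796, minus strand), the other partner in the trio, lay in the opposite direction by a smaller amount. Naïve libraries had 134 to 186 CPM with a median of 165 CPM. Injured day 7 libraries had 114, 120 and 125 CPM, all below every naïve library. The log2 fold change of -0.43 ± 0.09 had an FDR of 0.00262 but did not reach the 1.5-fold limit, so Sox6 was not called. Sox6 is also known for its role in red blood cell maturation. The erythroid markers were lower in the same libraries, with 5 of 9 called lower and 0 higher (6.11% and 10.4% of all genes), a median log2 fold change of -0.62, and a summed level of 16761 to 27599 CPM in the injured day 7 libraries against 30927 to 41443 CPM in naïve ones. Hbb-bs was the most abundant of them and none was at the floor of 3 counts in all libraries. Their part in the Sox6 difference was not tested.

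Among the SoxC genes, Sox4 (chr13:28948919-28953713, minus strand) had the tightest increase. Naïve libraries ran from 44.0 CPM through a median of 59.6 CPM to 66.1 CPM, and injured day 7 libraries had 99.2, 109 and 112.5 CPM. The groups did not overlap. The log2 fold change was 0.93 ± 0.11 (FDR = 1.72e-05) and ranged from 0.80 to 0.98 over the other settings. An antisense gene, Gm26735, overlaps an exon of Sox4, and Sox5, Runx1 and Runx2 also overlap genes on the opposite strand. The kit kept strand, but the strand setting of the quantification is not given in the sources used here, so reads of such partners may have been counted.

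Sox11 (chr12:27334264-27342574, minus strand) was scarce in these libraries. It had 13 to 30 estimated counts in naïve libraries and 37 to 54 in injured day 7 libraries. On the CPM scale the naïve range was 0.642 to 1.13 with a median of 0.832, and injured day 7 libraries had 2.18, 2.34 and 2.50. Despite the low level these groups did not overlap, and Sox11 was called higher against naïve knees at a log2 fold change of 1.44 ± 0.24 (FDR = 0.000344). At day 1 injured libraries had 1.03, 1.41 and 1.46 CPM, a log2 fold change of 0.57 ± 0.25 against naïve knees that was not called (FDR = 0.987, edgeR).

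Runx1 (chr16:92601466-92826149, minus strand) was the member of the Runt family that rose. Naïve libraries had 96.7 to 138 CPM with a median of 100.5 CPM. Injured day 7 libraries had 171, 205 and 228 CPM, whereas day 1 injured libraries had 95.9, 109 and 141 CPM. The log2 fold change at day 7 against naïve knees was 0.93 ± 0.15 (FDR = 0.000259) and stayed called under all other settings, from 0.67 with an offset for transcript length to 1.04.

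Runx2 (chr17:44495987-44814797, minus strand), the regulator of hypertrophy and bone formation, had 52.3 to 76.6 CPM in naïve libraries with a median of 60.4 CPM. Injured day 7 libraries had 55.0, 63.0 and 63.3 CPM, inside the naïve range. The log2 fold change was 0.00 ± 0.10 (FDR = 0.996), and its approximate 95% interval ran from -0.20 to 0.20, which bounds the difference on either side below the fold limit.

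Sp7 (chr15:102356606-102367182, minus strand) likewise overlapped, with 17.6 to 27.95 CPM in naïve libraries and 20.9, 23.95 and 26.1 CPM in injured day 7 libraries (log2 fold change 0.02 ± 0.15, FDR = 0.946). Its highest group mean was that of the day 7 contralateral libraries, at 28.6, 31.6 and 36.6 CPM, all above the naïve range. That difference was not called (log2 fold change 0.44 ± 0.14, FDR = 0.248), and without the library that stood apart, which had the 36.6 CPM, it was 0.34 and again not called.

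Runx3 (chr4:135120652-135177990, plus strand) had 16.9 to 22.7 CPM in naïve libraries and 15.9, 16.9 and 19.0 CPM in injured day 7 libraries (log2 fold change -0.24 ± 0.10, FDR = 0.0886). The sum of the T and NK cell markers, cells in which Runx3 is abundant, was 42.6 ± 3.96 CPM in injured day 7 and 48.0 ± 8.96 CPM in naïve libraries, with 0 of 9 called in either direction, beside 10.4% higher and 6.11% lower over all genes. Mef2c (chr13:83504034-83667080, plus strand) had 118 to 166 CPM in naïve libraries and 109.6, 116.2 and 133.5 CPM in injured day 7 libraries, a log2 fold change of -0.22 ± 0.13 (FDR = 0.208). Skeletal muscle markers, a cell type rich in Mef2c, summed to 4037 ± 1386 CPM in injured day 7 libraries and 7140 ± 2784 CPM in naïve libraries, with 1 of 11 called lower, a share near the 6.11% of all genes. The part of either list in these values was not tested.

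In all, 4 factors had every injured day 7 library above every naïve library, namely Sox9, Sox4, Sox11 and Runx1, and Sox6 had every one below. Among all genes tested 17.4% lay wholly above and 10.8% wholly below.

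To set the factors side by side, CPM was divided by the mean effective transcript length in kilobases. By this level per length Mef2c (38.1 ± 5.42), Sox6 (34.7 ± 3.33) and Runx1 (28.3 ± 4.43) led in naïve libraries (SD, n = 6), and their ranges overlapped from each to the next. Runx2 (16.03 ± 2.45) followed apart from Runx1, then Sox4 (12.4 ± 2.03), Runx3 (9.52 ± 1.46), Sp7 (8.501 ± 1.30), Sox9 (5.43 ± 1.11) and Sox5 (4.32 ± 1.04), each overlapping the next, and Sox11 was last and apart at 0.108 ± 0.022. In injured day 7 libraries Runx1 was first (43.9 ± 8.01, n = 3) and its range lay apart from that of Mef2c (29.3 ± 4.88). Sox9 stood sixth at 13.8 ± 4.05 and overlapped Sp7 (10.2 ± 1.82), and Sox11 was again last at 0.288 ± 0.020.

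Against the contralateral knee at day 7 the same direction held for most of these genes. Of the 10 factors 4 were called higher and 0 lower, where 9.33% of 21262 genes were called higher and 3.23% lower. This comparison shares the injured day 7 libraries with the one against naïve knees. Sox9 was higher by 1.72 ± 0.23 on the log2 scale (FDR = 4.04e-05), Sox11 by 1.38 ± 0.32 (FDR = 0.00500), Runx1 by 1.201 ± 0.18 (FDR = 0.000141) and Sox5 by 1.17 ± 0.25 (FDR = 0.00313). Without the contralateral library that stood apart, these differences were 1.64, 1.21, 1.10 and 1.02 and remained called. The call of Sox5 was lost with an offset for transcript length (0.86, FDR = 0.0582). Sox4 had 65.0, 67.1 and 94.5 CPM in the contralateral knees, the last in the library that stood apart, and its log2 difference of 0.50 ± 0.16 (FDR = 0.0307) was under the fold limit. Without that library it was 0.72 (FDR = 0.00243) and called. Runx3 was lower in all 3 injured libraries than in the contralateral ones, which had 21.4, 21.9 and 22.4 CPM, by a log2 fold change of -0.34 ± 0.12 (FDR = 0.0477) that did not reach the fold limit, and of -0.30 (FDR = 0.114) without the library that stood apart. Sp7 was also lower in all 3 injured libraries (log2 fold change -0.45 ± 0.17, FDR = 0.0785, and -0.33 with FDR = 0.250 without that library). The share of all genes lying wholly apart in this comparison was not computed. Neither Runx2 (0.09 ± 0.14) nor Mef2c (0.17 ± 0.21) passed. Without that library the last 2 values were -0.05 and -0.06. For Sox6 the difference was -0.21 ± 0.12 (FDR = 0.264), and -0.30 (FDR = 0.104) without it.

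**Figure D2:**
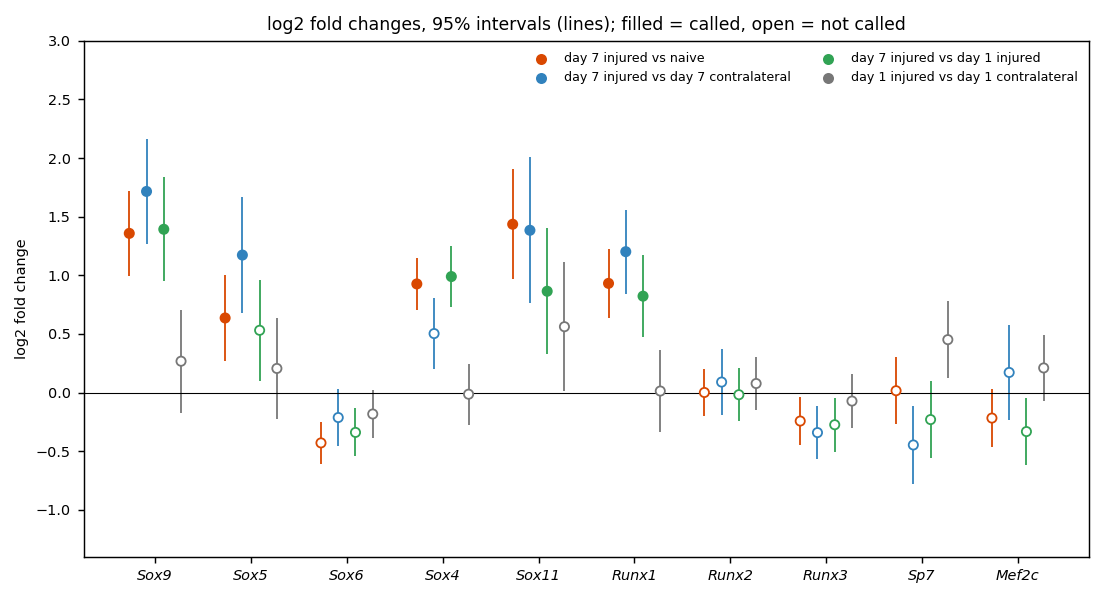
log2 fold change (y axis) of each factor (x axis) in 4 comparisons, coloured as in the key, with approximate 95% intervals from edgeR as lines and filled points for genes called at FDR ≤0.05 and ≥1.5-fold. Filled points are seen for Sox9, Sox5, Sox4, Sox11 and Runx1 only, and none belongs to the day 1 comparison.

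For Sox9, Sox4 and Runx1 the increase fell between day 1 and day 7. In injured knees at day 1 their log2 fold changes against naïve knees were -0.03, -0.06 and 0.11. That of Sox11 was already 0.57, and none of these was called. Injured knees at day 7 exceeded injured knees at day 1 in Sox9 (log2 fold change 1.39 ± 0.23, FDR = 0.000477), Sox4 (0.99 ± 0.13, FDR = 0.000104), Runx1 (0.82 ± 0.18, FDR = 0.00414) and Sox11 (0.86 ± 0.27, FDR = 0.0321), so that 4 of the 10 factors were called higher and 0 lower beside 9.04% and 6.38% of all genes. The call of Sox11 was lost when any 1 of the 6 injured libraries was left out, with log2 fold changes from 0.71 to 0.95 and FDRs from 0.0519 to 0.118. It was also lost with no filter on low counts (FDR = 0.0572), with protein-coding transcripts only (0.72, FDR = 0.0776) and with all 18 libraries in 1 fit (FDR = 0.0575). With an offset for transcript length Runx1 was below the fold limit (0.53, FDR = 0.0479). Sox5 was not called (0.53 ± 0.22, FDR = 0.0913), although it was without injured day 7 replicate 1 (0.75, FDR = 0.0185). Sox6 was lower at day 7 by a log2 fold change of -0.34 ± 0.10 (FDR = 0.0282), under the fold limit.

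The injured knee was then set against its contralateral control on each day, and the 2 differences were compared in 1 test over the 4 groups, at FDR ≤0.05 with no fold limit. Here 2 of the factors were called higher, Sox9 (1.44 ± 0.32, FDR = 0.0135) and Runx1 (1.18 ± 0.26, FDR = 0.0122), against 3.72% of all genes. Sp7 was called lower (-0.90 ± 0.24, FDR = 0.0422), against 0.287% of all genes. Without the contralateral library that stood apart the values of Sox9 and Runx1 were 1.37 (FDR = 0.0253) and 1.085 (FDR = 0.0235). The 2 higher calls were lost without injured day 7 replicate 3, with FDRs of 0.0534 for Sox9 and 0.0524 for Runx1. For Sp7, injured libraries exceeded contralateral ones at day 1 (23.2, 25.3 and 35.9 CPM against 19.9, 20.3 and 21.3 CPM) and lay below them at day 7. The share of all genes with groups apart was not computed for these comparisons. The call of Sp7 was lost with an offset for transcript length (-0.69, FDR = 0.249), with limma-voom (FDR = 0.0564), with no filter on low counts (FDR = 0.0537) and when any of 9 libraries was left out, with FDRs up to 0.139, and without the contralateral library that stood apart the contrast was -0.78 (FDR = 0.0799). Sox4 was not called (0.51 ± 0.22, FDR = 0.243), and was called without that library (0.73, FDR = 0.0386).

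The Runx genes differed in where their transcripts began. Estimated counts of protein-coding transcripts were summed by start, with starts within 10 kb pooled, and these shares are described without a test because the assignment of reads to transcripts of one gene is itself an estimate. For Runx1 the distal starts at chr16:92825778-92826149 contributed 60.5% ± 4.21 of the counts in naïve libraries (SD, n = 6, range 55.1% to 65.5%), and 43.9%, 50.1% and 52.7% in injured day 7 libraries, below every naïve library. Expressed as levels, transcripts from the distal starts went from 55.6 ± 5.86 to 93.2 ± 21.7 CPM, and those from the proximal starts at chr16:92695495-92697328 from 36.9 ± 9.35 to 95.6 ± 6.16 CPM (n = 6 and 3). Both were higher at day 7, the proximal ones by more. Day 1 injured libraries had distal shares of 53.8%, 61.5% and 63.3%, of which the lowest, replicate 2, also lay below every naïve library. Day 1 contralateral libraries had 51.7%, 63.3% and 65.8%, of which the lowest, replicate 3, lay inside the injured day 7 range and below every naïve library. Among day 7 contralateral libraries the shares were 61.1% and 65.2%, and 30.8% in the library that stood apart.

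Runx2 gave no such separation. Its distal starts at chr17:44814226-44814797 contributed 33.4% to 54.2% in naïve libraries and 38.0%, 45.6% and 51.4% in injured day 7 libraries, and the library that stood apart was again lowest of the 18 at 13.4%. Runx3 was read almost wholly from its distal start at chr4:135120652, with 95.4% to 98.6% in naïve and 93.4% to 96.4% in injured day 7 libraries. That start is the one whose window holds the pair of Runt motif matches shown above.

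**Figure D3:**
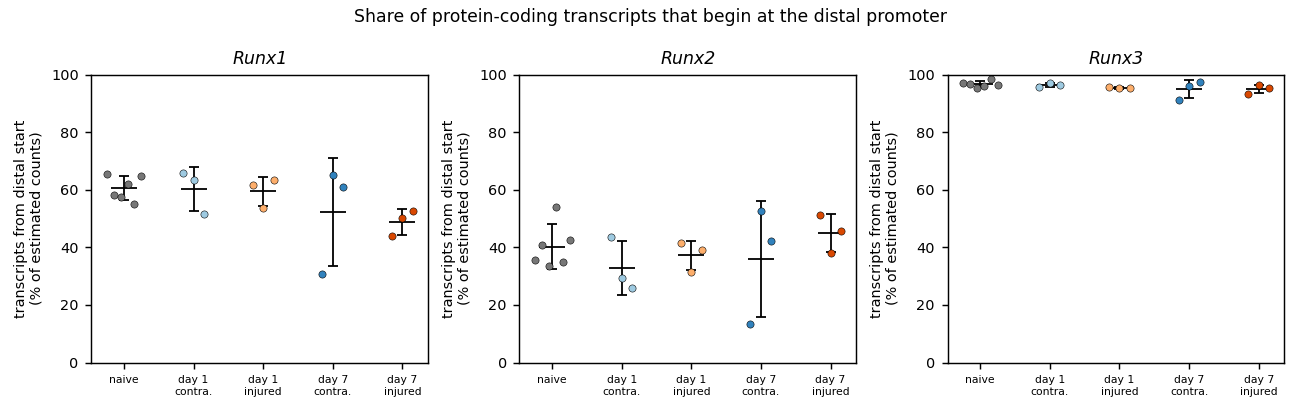
Share of protein-coding estimated counts assigned to transcripts from the distal start (y axis, percent) in each library by group (x axis), for Runx1, Runx2 and Runx3, with the mean and SD in black. The day 7 injured Runx1 shares, 43.9% to 52.7%, lie below the naïve range of 55.1% to 65.5%, and the low point among day 7 contralateral libraries is the library that stood apart.

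Genes that the Sox trio is known to regulate changed unevenly, and a link to the trio was not tested. Of 20 cartilage matrix genes tested, 4 were called higher at day 7 against naïve knees, 1 lower and 15 were not called, with a median log2 fold change of 0.25. Over all genes tested 10.4% were called higher and 6.11% lower, with a median of -0.04. Acan, which encodes the core protein of aggrecan, rose 2.96-fold (log2 fold change 1.57 ± 0.20, FDR = 3.31e-05), from 249 to 587 CPM in naïve libraries to 949 to 1252 CPM. Fibin rose 2.83-fold (FDR = 0.000263), Comp, a pentameric matrix protein, 2.63-fold (1.39 ± 0.20, FDR = 0.000104) and Col11a1, a fibril collagen, 2.39-fold (1.26 ± 0.19, FDR = 0.000121). In contrast, Col2a1, the classical target of Sox9 and the most abundant gene of the list, did not pass (0.25 ± 0.20, FDR = 0.358), with 3611 to 4116 CPM in injured day 7 libraries inside the naïve range of 2595 to 4989 CPM. Chad, encoding chondroadherin, was called lower (-0.73 ± 0.26, FDR = 0.0459), a call that was lost without naïve replicate 1, 2, 3 or 4, without any 1 of the injured day 7 libraries, and with limma-voom. Against contralateral knees 5 of the 20 were called higher and 1 lower, beside 9.33% and 3.23% of all genes. Without the library that stood apart the counts were 4 and 0, beside 2029 and 434 of 21808 genes.

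At day 7 against naïve knees, genes downstream of Runx2 and Sp7 moved in both directions while those factors were not called. Of 17 osteoblast and osteocyte genes, 6 rose at day 7 against naïve knees, 2 fell and 9 were not called (median log2 fold change 0.29), beside 10.4% higher and 6.11% lower over all genes. Postn, a matricellular protein of periosteum and fibrous tissue, went from 82.9 to 305 CPM in naïve libraries to 2087 to 3470 CPM in injured day 7 libraries (19.5-fold, 4.29 ± 0.43, FDR = 2.98e-06). Col1a1, the most abundant gene of the list, rose 4.15-fold (2.05 ± 0.25, FDR = 1.72e-05), Col1a2 rose 3.76-fold and the collagen-binding Sparc 2.89-fold, while Fkbp11 and Ibsp rose by 1.40 and 0.69 on the log2 scale. The genes that rose furthest are also made by fibroblasts. The 2 that fell mark osteocytes, Sost, the Wnt inhibitor sclerostin (-0.95 ± 0.22, FDR = 0.00488), and Mepe (-0.61 ± 0.14, FDR = 0.00342), of which the second was not called without naïve replicate 3 (-0.58) or injured day 7 replicate 1 (-0.50). Dmp1 and Phex, other osteocyte genes of the list, were not called. Bglap, encoding osteocalcin (-0.35 ± 0.31, FDR = 0.415), and Alpl (0.17 ± 0.15, FDR = 0.400) did not pass. Against contralateral knees 3 of the 17 were called higher and 1 lower, beside 9.33% and 3.23% of all genes. Without the library that stood apart the counts were 5 and 2, beside 2029 and 434 of 21808 genes.

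Of 9 hypertrophic chondrocyte genes, a list that shares Ibsp, Spp1 and Alpl with the one above, 3 were called higher against naïve knees and 0 lower (median log2 fold change 0.42), beside 10.4% and 6.11% of all genes. These were the collagenase Mmp13 (0.88 ± 0.22, FDR = 0.00774), the channel gene Panx3 (0.74 ± 0.25, FDR = 0.0388) and Ibsp. The Panx3 call was lost when any 1 of 7 libraries was left out, all of the naïve ones except replicate 3 and injured day 7 replicates 2 and 3. Col10a1, the collagen that defines hypertrophic cartilage, did not pass (-0.02 ± 0.30, FDR = 0.971), and Spp1, the most abundant of the list, had a log2 fold change of 0.42 ± 0.15 (FDR = 0.0504). Against contralateral knees 0 of the 9 were called, beside 9.33% higher and 3.23% lower over all genes. Without the library that stood apart 0 were again called, beside 2029 higher and 434 lower of 21808 genes.

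**Figure D4:**
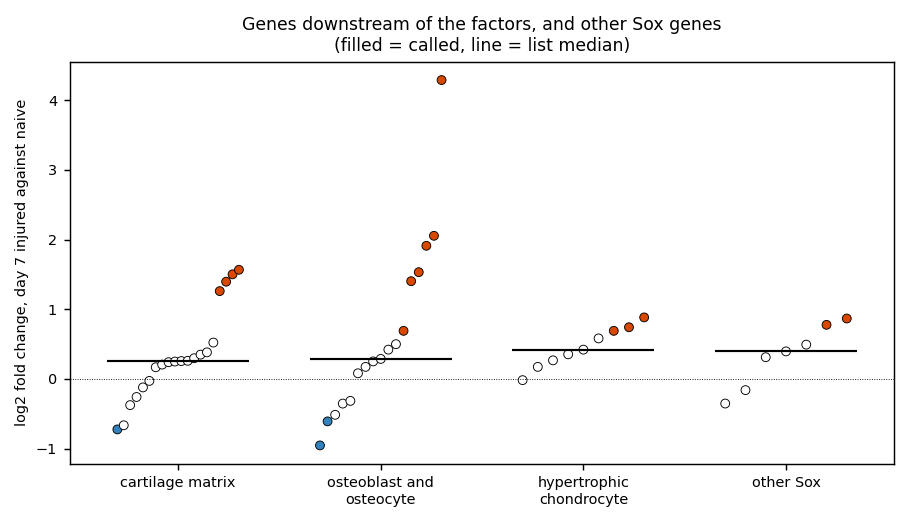
log2 fold change at day 7 in injured against naïve knees (y axis, edgeR) of each tested gene in 4 lists (x axis), filled orange where called higher and blue where called lower, with list medians as lines. The list medians are 0.25 for cartilage matrix, 0.29 for osteoblast, 0.42 for hypertrophic and 0.39 for other Sox genes, and Postn at 4.29 is the furthest point.

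Other skeletal transcription factors and their cofactors were listed as well. Of 40 tested, 18 rose against naïve knees, 0 fell and 22 were not called, beside 10.4% higher and 6.11% lower over all genes, and the median log2 fold change was 0.55. Scx (scleraxis), a tendon and ligament regulator, had 1.73 to 4.10 CPM in naïve libraries and 21.1 to 23.4 CPM in injured day 7 libraries, a 7.66-fold increase (2.94 ± 0.23, FDR = 2.17e-07). Osr2, a regulator of joint formation, rose 5.91-fold (2.56 ± 0.28, FDR = 6.30e-06). Zfp521, which binds Runx2 and restrains it, rose 3.86-fold (1.95 ± 0.12, FDR = 1.69e-08), and Prrx1, which marks limb mesenchyme, rose 3.13-fold (1.64 ± 0.14, FDR = 5.59e-07). Twist1, which also restrains Runx2, followed at 2.86-fold (1.51 ± 0.14, FDR = 1.47e-06). The most abundant, Atf4, had 0.15 ± 0.08 (FDR = 0.143). Cbfb, the shared partner of the Runx proteins, had a log2 fold change of 0.40 ± 0.06 (FDR = 0.000208), under the fold limit. Against contralateral knees 16 of the 40 were called higher, beside 9.33% of all genes, and 14 without the library that stood apart, beside 2029 of 21808 genes. A further count gave 10 called higher when the injured-to-contralateral difference at day 7 was set against that at day 1, beside 3.72% of all genes. Without that library 8 were called higher and 1 lower, beside 979 and 82 of 21808 genes.

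**Figure D5:**
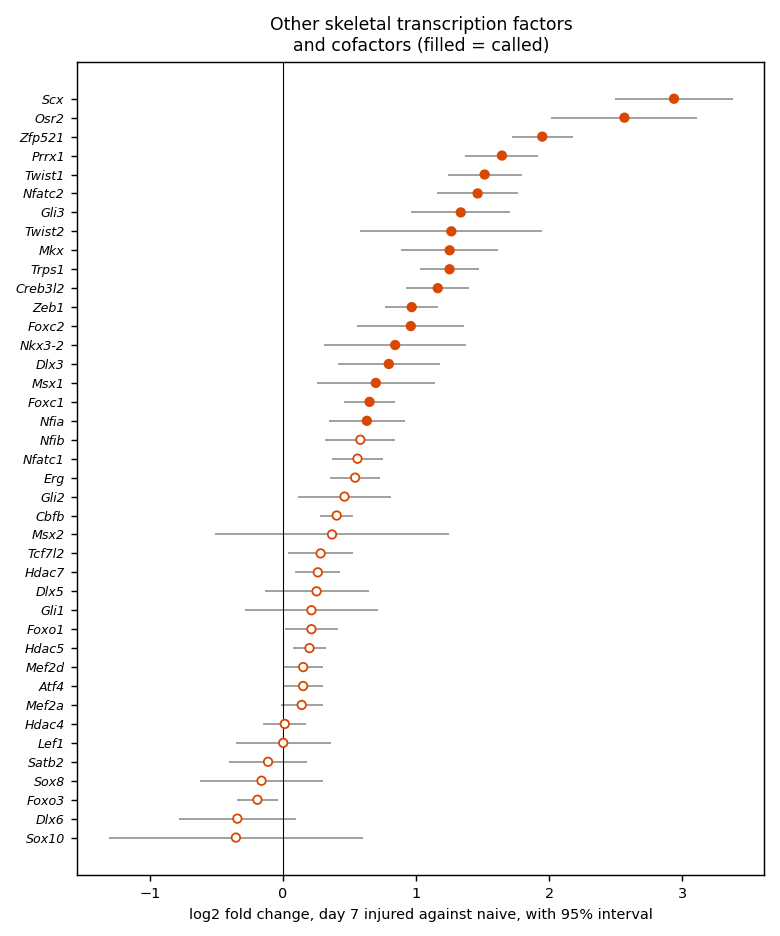
log2 fold change at day 7 in injured against naïve knees (x axis, with approximate 95% intervals from edgeR) of 40 other skeletal transcription factors and cofactors (y axis), filled where called. The list runs from Sox10 at -0.35 to Scx at 2.94, and 18 genes are filled, all on the right.

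Of 14 other Sox genes, among them Sox8 and Sox10 of the list above, 7 passed the filter on low counts, and Sox2, Sox3, Sox14 and Sox21 had at most 3 counts in every library. Of the 7, 2 were called higher and 0 lower, beside 10.4% and 6.11% of all genes. Sox18 rose by 0.87 ± 0.19 on the log2 scale (FDR = 0.00286), from 6.86 to 12.1 CPM in naïve libraries to 13.7 to 16.97 CPM, and Sox7 by 0.78 ± 0.21 (FDR = 0.0112), a call lost without injured day 7 replicate 3 (0.69). Both are known from endothelium, and 5 of 10 endothelial markers were called higher and 0 lower, beside the same shares of all genes, led by Emcn (1.04 ± 0.14, FDR = 6.72e-05), with a summed level of 387 ± 31.2 CPM in naïve and 580 ± 52.6 CPM in injured day 7 libraries. Pecam1 was the most abundant. The part of endothelial RNA in these values was not tested.

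Markers of the other cells that such a dissection could hold were counted in the same comparison, since several of the 10 factors are also made by those cells. Among markers called lower were 4 of 6 megakaryocyte and platelet genes (summed level 380 ± 48.3 CPM against 580 ± 38.4 CPM in naïve libraries, led in abundance by Ppbp), 2 of 12 neutrophil and marrow myeloid genes (9848 ± 1737 against 13248 ± 2092 CPM, S100a8), 2 of 5 adipocyte genes (129 ± 25.9 against 243 ± 93.3 CPM, Fabp4) and 1 of 8 B cell genes (191 ± 19.1 against 237 ± 53.2 CPM, Cd79b). In the other direction 1 of 8 osteoclast genes (1865 ± 75.2 against 1383 ± 262 CPM, Acp5) and 2 of 8 synovial fibroblast genes (1512 ± 544 against 992 ± 358 CPM, Prg4) were called higher. Prg4 alone had means of 1211 CPM in injured day 7 and 781 CPM in naïve libraries, so it made up most of the synovial sums. Which cells its RNA came from was not tested. None of 10 macrophage genes (866 ± 41.6 against 695 ± 89.7 CPM, C1qb) and none of 10 proliferation genes (2178 ± 246 against 2850 ± 198 CPM, Mki67) was called. Each of these counts stands beside 10.4% higher and 6.11% lower over all genes, and counts of 1 of 8 are near those shares. Of these lists none had a marker at or under 3 counts in all libraries. Runx1 is known from megakaryocytes, whose markers were lower where Runx1 was higher. What part these cells had in the level of any factor was not tested.

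Finally, the genes whose profile over the 18 libraries lay nearest to that of each factor were found among 15993 genes with a mean of at least 1 CPM, by the root mean square difference of log2(CPM + 0.5) after subtracting the naïve mean. Nearest to Sox9 were Map1a (0.144) and Dnm1 (0.171), to Sox5 Hectd2 (0.163) and Kif21a (0.197), and to Sox6 Abcb4 (0.101) and Atp8a1 (0.104). Sox4 lay nearest to Naglu (0.151) and Srd5a1 (0.158), and Sox11 to Socs2 and Tnfaip1 (0.191 each). For Runx1 these were Dnajc25 (0.111) and Dse (0.127), for Runx2 Arid1b (0.0866) and Ankrd17 (0.0941), and for Runx3 Ewsr1 (0.0825) and Gsk3a (0.0887). Sp7 lay nearest to Rab11fip4 (0.152) and to Fam20c (0.158), and Mef2c to Abcc9 (0.120) and Mllt11 (0.132). None of the 10 factors was among the 2 nearest genes of another.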

How the data were processed

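The 10 factors, the gene lists and the tests were chosen with earlier results of these data known. The authors pseudo-aligned the reads with kallisto to the mouse GRCm38 transcriptome after quality trimming, and left out 1 ACL sample for a low mapping rate; which sample this was, and whether it is among the 18 libraries, is not given in the sources used here, and all 18 were kept. They deposited estimated counts, TPM values and effective lengths per transcript and library, without further normalisation of the estimated counts by the authors. The labels name GRCh38 as the build, whereas the identifiers are those of mouse transcripts.

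Of 137436 transcripts per library, 135107 (98.3%) were matched to the GENCODE annotation of GRCm38. Unmatched transcripts held 0.667% to 3.90% of the counts and were left out. Estimated counts were summed per gene and rounded to whole numbers. The deposited TPM values served to choose the most abundant gene of each list and, with the effective lengths, to average transcript length per gene. Gene counts were filtered with filterByExpr, scaled by TMM and compared between group means without covariates by quasi-likelihood fits (edgeR 4.0.16, run in R 4.3.3). Comparisons without the day 7 contralateral group used 15 libraries (21129 genes) and the others 18 (21262 genes). The study's own test, limma-voom with a correlation between knees, could not be repeated since the labels do not link libraries to mice. The standard error is the absolute log2 fold change over the square root of F, and the 95% intervals are normal approximations from it. The code was tested on simulated data. Genes were named by a rule: all 10 factors, of each list the 2 furthest called and the most abundant gene (4 in each direction for transcription factors), and the 2 nearest profiles. Other genes were named after their values were seen, from the called genes of the lists downstream of the factors and from well-known members that did not pass.

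Alternatives were DESeq2 size factors, no filter, DESeq2 1.42.0, limma-voom (limma 3.58.1), a transcript length offset, protein-coding transcripts only, other thresholds, all 18 libraries in 1 fit, and each library left out. Those of the lists were added after the data had been seen. The standard errors include the spread between libraries.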

Additional observations from a re-analysis of the deposited data

Results flagged for a closer look

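Runx1 in naïve replicate 5, at 138 CPM, lay far above the other 5 naïve libraries, which ran from 96.7 to 109 CPM. Chance marks about 1 in 20 such groups, and 10 were examined, 1 per factor. Without that library the Runx1 difference at day 7 against naïve knees was 1.015 on the log2 scale.

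For 3 factors the difference between injured and contralateral knees was not the same at day 7 as at day 1 by the edgeR contrast, with log2 values of 1.44 for Sox9, 1.18 for Runx1 and -0.90 for Sp7. At day 7 the injured mean was above the contralateral mean for Sox9 and Runx1 and below it for Sp7. None of these calls held at FDR ≤0.01. Those of Sox9 and Runx1 were lost without injured day 7 replicate 3, and that of Sp7 under several alternatives, as given above.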

How the results depend on the processing

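The number of factors called higher in injured day 7 knees, 5 against naïve, 4 against contralateral and 4 against injured day 1 knees, stayed within 1.5 times under every alternative run. The lower calls over all genes moved further when 1 library was left out. They went from 1291 to between 797 and 1425 against naïve knees and from 686 to between 279 and 1058 against contralateral knees. Against injured day 1 knees they went from 1347 to between 849 and 1173. With no fold limit 1 factor was called lower in each of these comparisons, Sox6 against naïve and day 1 injured knees and Runx3 against contralateral knees, where the fold limit gave 0. At that setting 6291 of 21129 genes were called against naïve knees, both directions together. The counts were 5160 of 21129 against injured day 1 knees and 3960 of 21262 against contralateral knees. Where the injured-to-contralateral difference at day 7 was set against that at day 1, the 2 higher calls became 0 at FDR ≤0.01, and between 0 and 3 when 1 library was left out. The 1 lower call became 0 at FDR ≤0.01, with no filter on low counts, with limma-voom and with the transcript length offset, and between 0 and 1 when 1 library was left out. Over all genes, the 791 higher calls of this contrast lay between 396 and 979 when 1 library was left out. The 61 lower calls, the 0.287% given above, lay between 9 and 93. In all 4 other comparisons 0 factors were called in either direction under every alternative. No called value of a factor changed sign. No paired analysis was possible because the labels do not say which libraries come from the same mice. Sox11 had the fewest counts of the factors, with 13 to 54 per naïve or injured day 7 library, and no limit of detection was computed for the other factors.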
